A study of Drosophila melanogaster with 3 samples.

Results

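The Hedgehog pathway was examined in late pupal wings of *Drosophila melanogaster* through 10 core genes: the ligand gene hh, the release and transport genes disp and ttv, the receptor genes ptc, smo and ihog, and the transducer genes ci, fu, cos and Su(fu). Members were taken by name, as every probe set that the platform annotation assigns to exactly 1 gene symbol and that symbol alone. This gave 9 probe sets, 1 for each of 9 genes, among 13647 probe sets with 1 gene symbol on an array of 18952 probe sets. No probe set named fu in that annotation, and the gene is not analysed here. The samples formed a single group of 3 biological replicates of the Oregon R strain, with wings dissected at about 80 h after puparium formation (APF) from pupae kept at 25 C, 40 flies to a batch and 1 Affymetrix array to a replicate. Stage was judged by eye from wing pigmentation. There was no second genotype, treatment or time, so the questions that the data can answer are whether each gene gave signal above a background level and how well that signal repeated.

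Hedgehog is a secreted, lipid-modified signal. In the wing disc it is made by posterior cells under control of the selector gene en, released through Dispatched, carried across heparan sulphate proteoglycans and received by anterior cells through Patched with Ihog or its relative Boi. Unbound Patched keeps Smoothened inactive. When Patched is occupied, Smoothened acts through the Costal-2 and Fused complex to stop the cleavage of the zinc finger protein Cubitus interruptus (Ci) into a repressor, and full-length Ci then turns on genes such as ptc, dpp, kn and en near the compartment boundary. This signalling positions the central veins of the wing.

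The background level was set on each array by 84 genes known from other organs, of which 56 are odorant receptor genes and 28 encode proteins of the eggshell or of the male accessory gland. The 95th percentile of their signals was 93.1 on replicate 1, 106 on replicate 2 and 96.0 on replicate 3, and it is called the reference level below. A gene was called above it when limma's one-sided moderated test on log2 signal minus the reference level gave a Benjamini-Hochberg adjusted p under 0.05 over all 13647 probe sets. By this rule 42.8% of all probe sets were above the reference level. Tissue markers were called by the same test in a fit over 11982 genes, each read from its brightest probe set. In that fit 46.2% of all genes were above the level. The dissected tissue carried its wing markers: nub, vg, ap, salm and bs were all above the level, with a summed signal from 20970 to 22658. Of the markers of other tissues, 3 of 3 glial genes (summed signal 4955 to 5839), 2 of 4 muscle genes (654 to 1075), 1 of 3 haemocyte genes (250.2 to 331) and 1 of 4 fat body genes (404 to 628) were above it. Most of the glial sum came from nrv2 (2734 to 3407) and moody (1670 to 2659), while repo was at 156 to 226. The sums depend on single bright genes and do not rank the tissues by their share of cells. Of 3 measured neuronal genes (424 to 449.8) 0 passed in limma, although 2 of them, elav and para, had an unadjusted p under 0.05 (adjusted p = 0.0594 and 0.0553). The 1 tracheal gene measured, btl (3.80 to 16.1), was not above the level. The part of these cells in the signals described here was not tested.

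Of the 9 measured members, 7 were above the reference level (77.8%, beside 42.8% of all probe sets): disp, ttv, smo, ihog, ci, cos and Su(fu). The ligand gene hh and the receptor and target gene ptc were not. The median distance of the 9 members from the reference level was 2.17 on the log2 scale, beside -0.12 over all probe sets. Over all genes, each at its brightest probe set, the median was 0.20 and 46.2% were above the level. For each of the 7 called genes the lower 95% bound of the distance was over 1 on the log2 scale, that is more than 2-fold over the level. Signals of different probe sets depend on their probes as well as on the transcript, so distances are not an order of transcript abundance between genes.

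**Figure D1:**
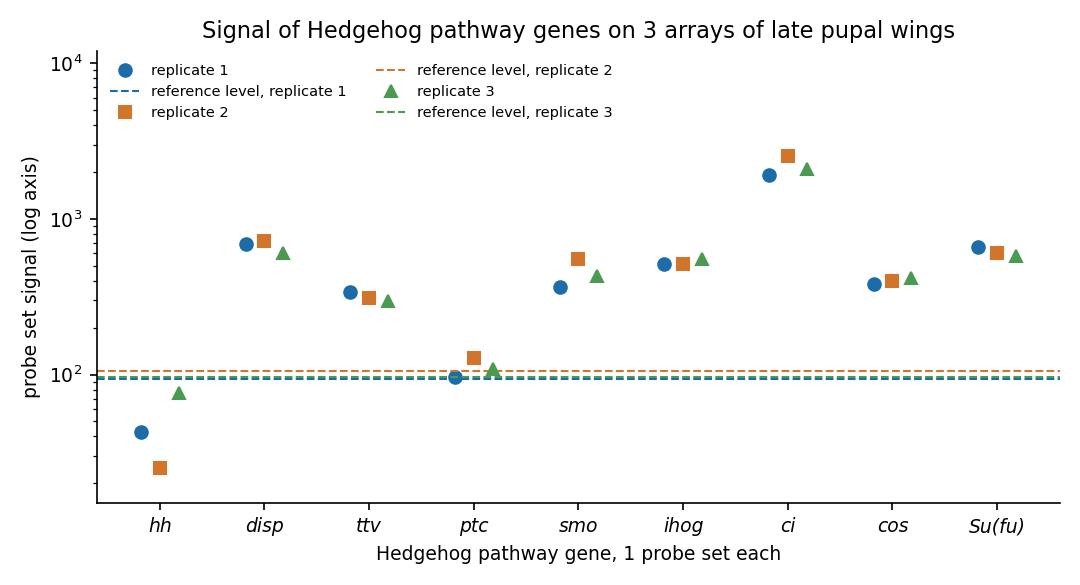
Probe set signal (log axis) of the 9 measured Hedgehog pathway genes on each of the 3 arrays, with a dashed line for the reference level of each array. The points of hh, from 25.0 to 76.3, lie under all 3 lines, those of ptc, from 96.6 to 127, lie just over their own lines, and those of the other 7 genes lie between 299 and 2519.

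The ligand gene hh had signals of 42.8, 25.0 and 76.3 on replicates 1, 2 and 3, against reference levels of 93.1, 106 and 96.0. It was below the level on every array, with the dimmest value on replicate 2. Its mean log2 signal was 5.44 ± 0.81 (SD, n = 3), which is -1.18 from the reference level with a 95% interval from -2.36 to 0.0054. The upper end of this interval is the reference level itself to within 1%, so signal above that level was not detectable here (limma, adjusted p = 1). Its brightest array was 3.05 times its dimmest. On replicate 2 the summed signal of the muscle markers was also lowest (654, beside 1075 and 1041 on replicates 1 and 3). This came from the muscle markers Act88F and fln. The other muscle markers were nearly level (TpnC4, 73.2, 73.0 and 84.4) or lowest on replicate 1 (up, 12.4, 46.8 and 55.9). The muscle sum was highest on replicate 1, hh on replicate 3. Markers of several tissues were, like hh, highest on replicate 3 and lowest on replicate 2. These were Act88F (572, 329 and 619), TpnC4, the neuronal elav (183, 127 and 336), the glial moody (2066, 1670 and 2659), the haemocyte Hml (45.2, 12.3 and 55.4) and Yp3. Highest on replicate 2 instead were nSyb, para, repo, nrv2, He, NimC1, Lsp2 and Yp1. Both fln and Yp2 were highest on replicate 1, and btl was lowest there. The fat body sum was highest on replicate 2 (628). The part of such cells in the hh values was not tested. In RNA of whole wings, fewer cells of a type and less RNA per cell cannot be told apart. The signal shows the transcript that 1 probe set detects at this stage and says nothing of protein made earlier.

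The genes that handle the ligand in producing and receiving tissue were both above the reference level. For disp, whose membrane protein releases lipid-bearing Hedgehog from producing cells, the signals were 684, 718 and 600.1. The 3 arrays lay within 1.20-fold of each other, and the mean was 2.76 ± 0.14 (SE) over the reference level on the log2 scale, or 6.78-fold (limma, adjusted p = 0.000269). For ttv, which encodes an EXT-family enzyme that builds the heparan sulphate chains along which Hedgehog spreads, the signals were 339, 310.0 and 299. All 3 were over the level and within 1.14-fold of each other, with a mean distance of 1.69 ± 0.15 (SE), or 3.22-fold (adjusted p = 0.00112).

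The receptor genes divided. The signals of ptc, which encodes the receptor that binds Hedgehog and holds Smoothened inactive, were 96.6, 127 and 109, against reference levels of 93.1, 106 and 96.0. Each array was over its own level, by 0.05, 0.27 and 0.18 on the log2 scale. The mean distance was 0.17 ± 0.14 (SE) with a 95% interval from -0.23 to 0.57, and it did not pass the test (limma, adjusted p = 0.317). The upper end of the interval corresponds to 1.48-fold over the level. The sign of the distance depended on the reference: it was -0.48 against the 99th percentile of the same genes and -0.26 against eggshell and accessory gland genes alone. Without a model, a rule that asks only for 3 arrays over the level counted ptc as above, as it did 45.6% of all probe sets.

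For smo, the seven-pass protein gene that passes the signal into the cell, the signals were 365, 555 and 428. Replicate 2 was 1.52 times replicate 1, a wider range than in the other called members. The mean distance was nevertheless 2.17 ± 0.16 (SE), or 4.51-fold over the reference level (limma, adjusted p = 0.000674). For ihog, which encodes an immunoglobulin and fibronectin co-receptor, the signals were 515, 516 and 548. These arrays lay within 1.07-fold of each other, and the mean distance was 2.42 ± 0.14 (SE), or 5.36-fold (adjusted p = 0.000364).

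All 3 measured transducer genes were above the reference level. The signals of ci, the transcription factor gene of the pathway, which is transcribed in anterior cells, were 1908, 2519 and 2079. The mean distance was 4.46 ± 0.14 (SE), or 22.0-fold over the level (limma, adjusted p = 0.000116). For cos, which encodes the kinesin-like scaffold Costal-2, the signals were 380.4, 399.8 and 417. This is a distance of 2.02 ± 0.14 (SE), or 4.07-fold (adjusted p = 0.000547). For Su(fu), whose product holds Ci in the cytoplasm, the signals were 662, 599 and 581. Its distance was 2.64 ± 0.15 (SE), or 6.25-fold (adjusted p = 0.000348). The arrays of cos lay within 1.10-fold and those of Su(fu) within 1.14-fold of each other, and those of ci within 1.32-fold.

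**Figure D2:**
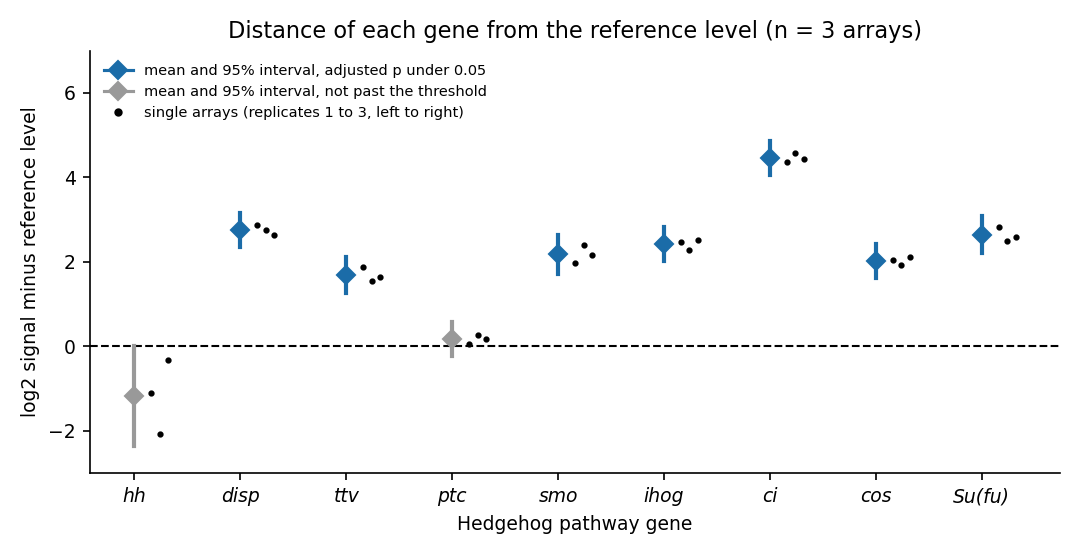
Distance of each measured Hedgehog pathway gene from the reference level on the log2 scale. Diamonds and bars give the mean and 95% interval over 3 arrays, black points the single arrays, and grey marks genes that did not pass the test. The interval of ptc (-0.23 to 0.57) crosses 0, that of hh (-2.36 to 0.0054) lies almost wholly below it, and the other 7 intervals start above 1.

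The members differed in how well their signals repeated. The SD of log2 signal was 0.05 for ihog, 0.07 for cos, 0.09 for ttv and 0.10 for Su(fu), and it reached 0.30 for smo and 0.81 for hh. Because the SD grows towards low signals, each was set beside the 400 probe sets of nearest mean signal (200 on each side), as a description. Of these, 5.5% had a smaller SD than ihog, 9.5% a smaller one than cos and 56.5% a smaller one than hh, whose spread was thus near the middle for a probe set of its brightness. The corresponding shares were 83.5% for smo and 78.8% for ci. Both of these genes, and ptc, had their lowest signal on replicate 1 and their highest on replicate 2, disp was also highest on replicate 2, ttv and Su(fu) were highest on replicate 1, and hh, ihog and cos on replicate 3. In all, 6 of the 9 members had an SD below the median of probe sets like them.

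**Figure D3:**
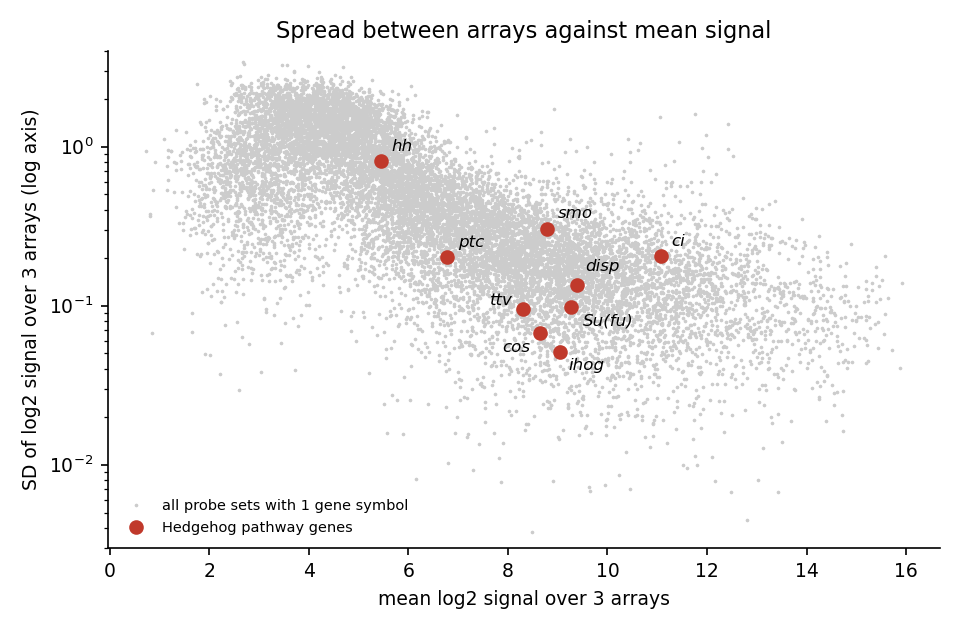
SD of log2 signal over the 3 arrays (log axis) against mean log2 signal for 13647 probe sets (grey) and the 9 Hedgehog pathway genes (red). The grey cloud climbs towards low signals; hh, at an SD of 0.81, lies within it, smo (0.30) and ci (0.21) lie in its upper part at their means, and ihog (0.05) and cos (0.07) lie in its lower part.

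A wider list of 55 genes, members included except hh, placed the core genes among partners, enzymes and targets. Of its 45 measured genes 39 were above the reference level in the fit over genes, in which each gene is read from its brightest probe set (86.7%, beside 46.2% of all 11982 genes). Without the core members the count was 32 of 37 (86.5%). The median distance over the 45 genes was 2.64, beside 0.20 over all genes. The 6 genes not above the level were ptc, rasp, shf, sfl, Notum and mirr. Many of the kinases and ubiquitin ligase subunits on the list also serve other pathways, so their signals are not specific to Hedgehog. Sotv shared its probe set with another gene, and dally, fu, Pka-C1, sgg, mts, CkIIalpha, CkIIbeta, Sap18 and vn were not analysed here.

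**Figure D4:**
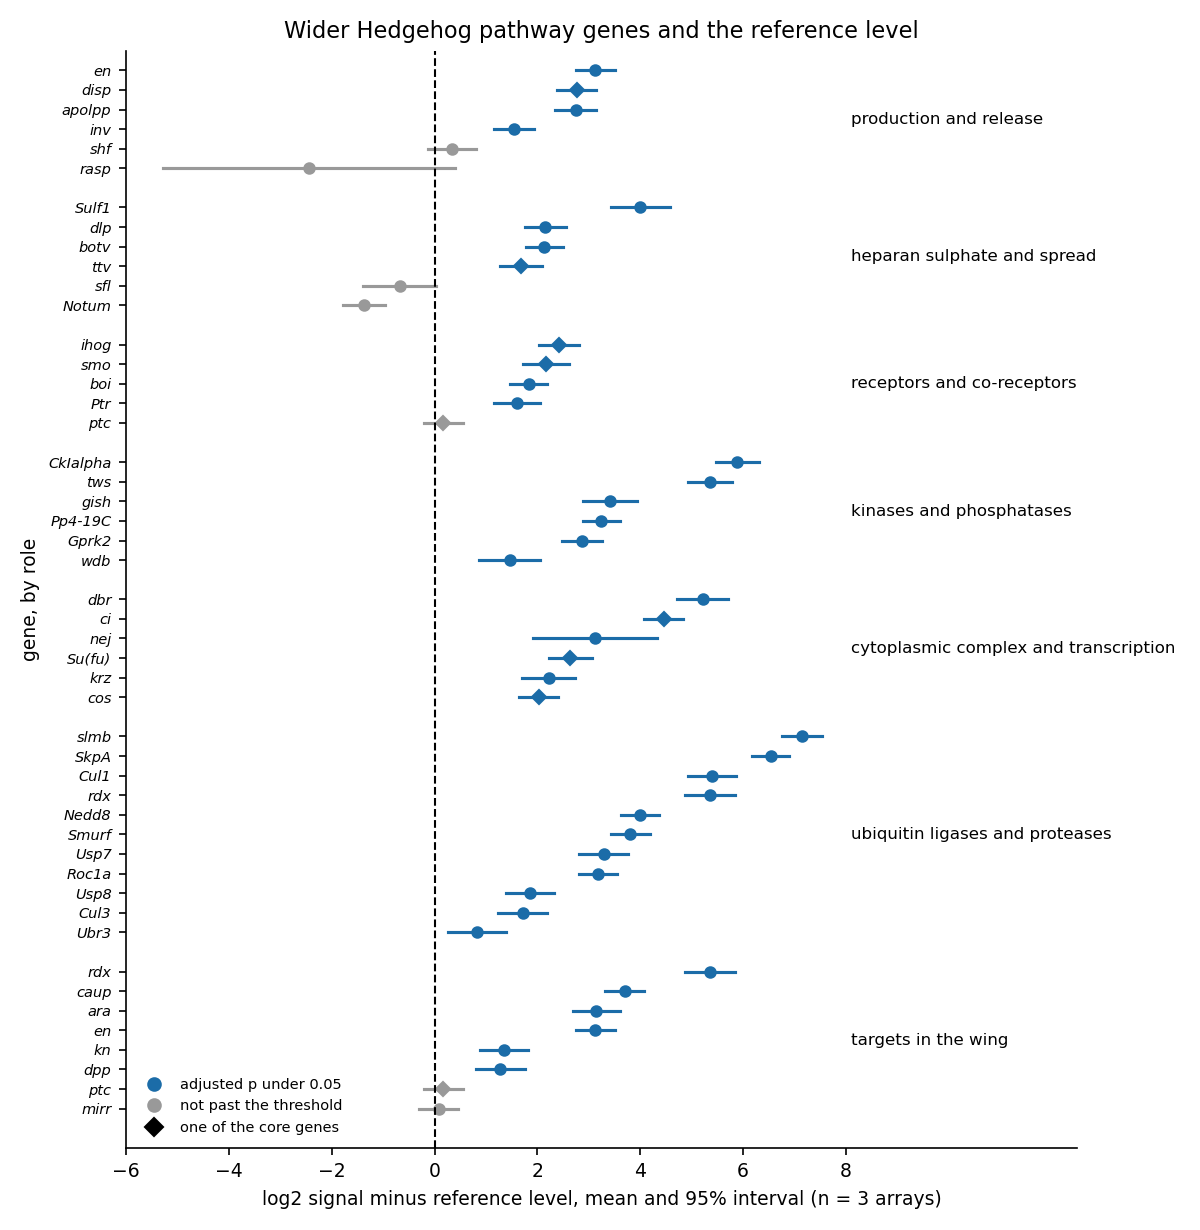
Distance of 45 Hedgehog pathway genes from the reference level on the log2 scale, by role, with 95% intervals over 3 arrays. Diamonds mark core genes, blue marks genes past the test and grey those not; genes with 2 roles appear in both. All measured genes of the kinase, complex and ubiquitin groups are blue, while rasp, shf, sfl, Notum, ptc and mirr are grey.

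Of 6 genes for production and release, 4 were above the reference level (66.7%, beside 46.2% of all genes). The ligand gene hh, which was not above it, was not on the wider list and is not in this count. The posterior selector gene en, which acts upstream of hh, had signals of 786, 875 and 914, all over the level (distance 3.13 ± 0.13 SE; limma, adjusted p = 0.000158). Its paralog inv had signals of 285, 322 and 252, also all over it (1.54 ± 0.13; adjusted p = 0.000999). Both genes were read from probe sets of the _s_at kind, whose probes may match transcripts of other genes, and the pair may not be fully separated. The gene apolpp, which encodes the lipoprotein scaffold on which lipid-bearing Hedgehog can travel, was at 572, 790.2 and 628 and is also a fat body gene. The acyltransferase gene rasp, whose product adds palmitate to Hedgehog, was at 39.0, 49.6 and 3.04. None of its arrays was over the level, and replicate 3 lay far under the other two, which left a wide 95% interval from -5.28 to 0.40 (adjusted p = 1). For shf, which encodes a secreted protein of the WIF family needed for Hedgehog spread, the signals were 141, 130.1 and 105. Each array was over its own level, but the mean distance of 0.34 did not pass (adjusted p = 0.111).

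Among genes for heparan sulphate and spread, 4 of 6 were above the level (66.7%, beside 46.2% of all genes); in groups this small, such a share differs from that of all genes by few genes. The EXT-family relative of ttv, botv, had signals of 421, 451 and 422 (distance 2.14 ± 0.12 SE; limma, adjusted p = 0.000325). The glypican gene dlp was at 425, 419 and 470.1, and the sulphatase gene Sulf1 at 1609, 1287 and 1877. Each of these 3 genes was over the level on every array. The sulphotransferase gene sfl, at 48.1, 97.3 and 49.2, was not above it (adjusted p = 1). Notum, which encodes a secreted lipase known for acting on Wingless, was at 32.3, 40.7 and 41.4 and lay under the level with an interval wholly below 0 (-1.78 to -0.96).

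Among the 5 receptor and co-receptor genes 4 were above the level (80%, beside 46.2% of all genes), with ptc as the exception. The paralog of ihog, boi, had signals of 344, 367 and 335, all over the level (distance 1.83 ± 0.12 SE; limma, adjusted p = 0.000498). Ptr, which encodes a Patched-related protein, was at 253, 305 and 342 (distance 1.60 ± 0.15; adjusted p = 0.00126). Both co-receptor genes and the Patched relative were thus over the level on every array, and ptc was over it on every array by a margin that did not pass the test.

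Of the 8 measured target genes 6 were above the reference level (75%, beside 46.2% of all genes). dpp, the BMP ligand gene that Hedgehog induces along the compartment boundary, had signals of 252, 211 and 253 (distance 1.28 ± 0.16 SE, limma adjusted p = 0.00303). Its probe set was of the _s_at kind. kn, which encodes a COE-family factor of the central intervein, was at 213, 325 and 228 (1.35 ± 0.16; adjusted p = 0.00237). All arrays of both genes were over the level, but kn has a second probe set at 42.4, 36.7 and 11.9 that was not above it. The Iroquois genes ara (974, 894 and 756) and caup (1317, 1336 and 1173), which act in vein and sensory organ formation, were above it. The third Iroquois gene, mirr, was at 107, 109 and 95.2 and was not (adjusted p = 0.562). rdx, whose product brings Ci to Cullin-3 for degradation, was at 3465, 3905 and 4869 on a probe set of the _s_at kind. Its other probe set, at 227, 101 and 150, did not pass (distance 0.62, adjusted p = 0.151 over probe sets).

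All 6 measured kinase and phosphatase genes, all 6 genes of the cytoplasmic complex and transcription, and all 11 genes of ubiquitin ligases and proteases were above the reference level, where 46.2% of all genes were. The kinase and phosphatase genes other than Gprk2, and Cul1, Cul3, SkpA and rdx, were read from probe sets of the _s_at kind. Their signals may therefore include transcripts of other genes. The wider list had 12 genes read from such probe sets, and all 12 were called. The share called among all probe sets of this kind is not given here, so the count has no background beside it. With _s_at and _x_at probe sets left out, 42.6% of all genes were called, beside 46.2% with them. In the first group CkIalpha, one of the kinases that phosphorylate Ci and Smoothened, was at 6017, 5523 and 5910. The phosphatase subunit gene tws was at 4098, 3753 and 4279, and gish, a casein kinase gene, at 986, 907 and 1254. The remaining kinase and phosphatase genes were Gprk2, Pp4-19C and wdb. In the second group dbr was at 2797, 4169 and 4116, and nej, the gene of the coactivator CBP, at 1519, 499.7 and 817. The spread of nej over the arrays (SD 0.80) was as wide as that of hh although its signal was far over the level (distance 3.12 ± 0.41 SE; limma, adjusted p = 0.00341), and its other probe set was not called (adjusted p = 0.453 over probe sets). krz was the other gene of this group beside ci, cos and Su(fu).

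The substrate adaptor gene slmb, whose product targets Ci for processing, had signals of 13526, 13541 and 14687. SkpA was at 8502, 9638 and 9183 and Cul1 at 4586, 3741 and 4086; both encode subunits of the ligase that holds Slmb. All arrays of these 3 genes were over the level. Cul3, rdx, Roc1a, Smurf, Usp7, Usp8, Nedd8 and Ubr3 were also above it. The call of Ubr3 (distance 0.82, limma adjusted p = 0.0193) was lost under 6 of 14 alternatives, among them leaving out replicate 1 (adjusted p = 0.0854) or replicate 3 (adjusted p = 0.0848). Of the 45 genes of the wider list 7 had more than 1 probe set, and in 0 of these 7 did more than 1 probe set pass in limma, nor at an unadjusted p under 0.05: Cul3, kn, nej, rdx, Ubr3 and wdb had exactly 1 that passed and mirr had 0. Each of the 9 core genes had a single probe set, so no such check exists for them.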

How the data were processed

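RNA from 3 batches of Oregon R pupal wings was hybridised to 1 Affymetrix array each, from 5 ug of total RNA per the labels' protocols. The deposited values are intensity signals, 1 for each probe set, that are not on a log scale. MAS5 and RMA are named per the submitters' processing notes, with no role or version. The 2% trimmed mean was 500 on every array, a feature of MAS5 signals. The aligner or genome build behind the annotation is not given in the sources used here. An array gives no counts, so 3 arrays limit the precision.

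Signals were taken as log2 values without further normalization. Names came from the platform annotation: 13647 probe sets had 1 gene symbol, 402 had several, 4720 had none, and 183 were controls. The fit used lmFit and eBayes of limma 3.58.1 (R 4.3.3) on log2 signal minus the reference level. It ran over probe sets for the core genes and over 11982 genes for the wider list and the tissue markers. For probe sets the prior SD was 0.34, with 1.51 prior degrees of freedom. The test was also run on simulated data, with probe sets drawn independently and the reference level held fixed. That run could not check the effect of an uncertain reference level or of dependence between probe sets. The uncertainty of the reference level is not part of the intervals. Figures used Python 3.11.15, pandas 2.3.3, numpy 2.4.6 and matplotlib 3.10.9.

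The members and lists were chosen with earlier results of these data known, and counts of a list were set beside the share over all features without a set test. Named from the wider list were genes of production, receptor and target roles and paralogs, the 3 brightest of each other role, and every gene not called. No gene was named by likeness of pattern, since 3 arrays of 1 group hold no pattern over conditions. Alternatives covered the reference level, scaling, pseudocount, filter, variance model, call rule, probe set choice and leaving out each replicate. A list of 10 Wingless pathway genes had 1 measured gene (1 called) and was not used. Sequences of the genes are not used here.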

Additional observations from a re-analysis of the deposited data

How the results depend on the processing

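The count of core genes above the reference level was 7 under 12 of the 13 alternatives to the fit over probe sets, and 8 without a model, where ptc was added. Under the filter on dim probe sets the 7 were of 8 members tested, beside 82.3% of all probe sets left, so the share of members then lay close to that of the array. With 1 replicate left out the count was 7 each time. The 7 called genes kept their call in every alternative with a test, with adjusted p of at most 0.0109, and hh was below the level in the 12 that tested it (-1.82 to -0.72; the filter on dim probe sets removed it). Among core genes only ptc changed sign: it was at -0.48 against the 99th percentile, -0.26 against eggshell and accessory gland genes alone and -0.27 against the array median plus 1, and 0.35 against odorant receptors alone (adjusted p = 0.133). The wider list had from 35 to 41 of 45 genes called, apart from 27 of 35 without _s_at and _x_at probe sets (42.6% of all genes called) and 40 of 42 with a filter on dim probe sets (83.3% of all genes called). Against the 99th percentile, eggshell and accessory gland genes alone, and the median plus 1, shf was at -0.30, -0.088 and -0.10, but it gained a call against odorant receptors alone (0.52, adjusted p = 0.0331), with the filter on dim probe sets (0.34, adjusted p = 0.0252) and without a model. Against the 99th percentile, eggshell and accessory gland genes alone, and the median plus 1, mirr was at -0.56, -0.35 and -0.36. With the mean of a gene's probe sets wdb was at -0.71, Cul3 at -1.32, Ubr3 at -0.58, kn at -0.27 and mirr at -0.34. Ubr3 has 3 probe sets, and in each of these genes every further probe set is dimmer. Without _s_at and _x_at probe sets Cul3 was at -4.36, and rdx lost its call (0.62, adjusted p = 0.151). Ubr3 also lost its call under 3 reference levels and without replicate 1 or replicate 3. No paired analysis was possible because all samples belong to 1 group. For signals near the reference level the call depended on how that level was set, as for shf.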

Other observations

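Beside the Hedgehog genes, 9 of 10 genes of a comparison list for the Dpp pathway were measured, and all 9 were above the reference level in the fit over genes, where 46.2% of all genes were. Among them, the ligand gene dpp had a mean distance of 1.28 on the log2 scale, the receptor gene tkv 6.30, the transducer gene Mad 3.75 and the feedback inhibitor gene Dad 2.40. The ligand genes hh (-1.18) and dpp lay on different sides of the level. Each was read from its own probe set, that of dpp being of the _s_at kind, so the difference between these genes was not tested.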
